A study of Mus musculus with 2 samples.

Results

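Leukocyte miRNAs of the newborn mouse gut are here the miRNA genes Mir223, Mir150, Mir155, Mir146, Mir146b, Mir342 and Mir142b, which make 7 of the 1973 miRNA genes counted. Mir223, Mir150, Mir155, Mir146, Mir146b and Mir342 were chosen by name, as miRNAs known from white blood cells. Mir142b joined them because its opposite-strand reads lie on the strand of Mir142, and its counts were known when it was chosen, so that strand is a description and not a finding. Small RNA was sequenced from the intestine of 2 newborn pups of strain B6NCrl, aged 0 days, from a single pregnant female, with 1 library per pup. The labels name no gut segment, genotype change or treatment, and the sex was not collected. All samples form 1 group, so the data give levels, the order of the miRNAs and the distance between littermates, called pup 1 and pup 2. For Mir142b the reads used lie on the strand opposite to the annotated gene, which is the strand of Mir142; they are called the Mir142b facing reads. The other members were counted on their annotated strand.

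A miRNA is cut from the stem of a hairpin transcript and guides Argonaute proteins to messenger RNAs that pair with its seed, which is bases 2 to 8 of the mature strand. White blood cells carry several miRNAs that most other tissues lack or hold at low levels. The gut wall of a newborn contains resident macrophages, mast cells and some lymphocytes, and blood in its vessels brings further leukocytes. Because whole tissue was sequenced, fewer leukocytes and less of a miRNA in each leukocyte cannot be told apart. Reads of these miRNAs from leukocytes and from any other cells of the gut cannot be separated either.

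The mature sequences below show which of the arms listed have a seed in common, with Mir150 compared by its 3p arm only. They come from RefSeq's miRNA table on GRCm38.p6, which held a hairpin for 6 of the 7 members and at least 1 mature sequence for all 7. Letters in capitals are the seed, and each line runs 5′ to 3′.
miR-342-3p: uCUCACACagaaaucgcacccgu
miR-223-3p: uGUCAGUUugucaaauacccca
miR-146a-5p: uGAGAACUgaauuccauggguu
miR-146b-5p: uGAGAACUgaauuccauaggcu
miR-155-5p: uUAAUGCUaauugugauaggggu
miR-150-3p: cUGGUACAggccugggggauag
miR-142a-3p: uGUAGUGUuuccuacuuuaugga
miR-142a-5p: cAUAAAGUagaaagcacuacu
miR-142b: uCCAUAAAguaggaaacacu

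Only miR-146a-5p (made by Mir146) and miR-146b-5p had a seed in common: the 14 mature sequences that the table held for the members and Mir142 had 13 different seeds. These 2 sequences matched at 20 of 22 positions and were identical over their first 17 bases. Counted from the 5′ end of miR-146a-5p, they differ by G18A and U21C. For the other 12 mature sequences, no other mature sequence of the 1738 in the table had the same seed. The counts are per gene and do not separate the arms of a hairpin.

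Mir142 and Mir142b are the opposite strands of 1 site, which is why their hairpins are shown here. Mir142 lies on the plus strand at chr11:87756864-87756927, and Mir142b on the minus strand at chr11:87756841-87756955. Capitals mark miR-142a-5p and miR-142a-3p in the first hairpin and miR-142b in the second.
Mir142: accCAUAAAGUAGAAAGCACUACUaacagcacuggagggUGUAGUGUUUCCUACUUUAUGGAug
Mir142b: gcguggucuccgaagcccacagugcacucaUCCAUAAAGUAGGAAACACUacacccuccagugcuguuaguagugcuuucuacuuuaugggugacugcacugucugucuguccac

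The reverse complement of the whole Mir142 hairpin, 64 bases, stands at positions 29 to 92 of the 115-base Mir142b hairpin. The reverse complement of miR-142a-3p stands at positions 31 to 53 and that of miR-142a-5p at positions 69 to 89. All 20 bases of miR-142b are complementary to miR-142a-3p. Reads from the 2 strands of this site therefore differ in sequence and can be assigned by strand.

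On GRCm38, which the mm10 coordinates of the counts share, the members lie on 6 chromosomes. Mir342 (12, from 108658620 to 108658718) lies in an intron of Evl, which codes for a regulator of actin. Mir223 (X, 96242817 to 96242926) overlaps an exon of the noncoding gene F630028O10Rik, and Mir155 (16, 84714140 to 84714204) overlaps an exon of its host transcript Mir155hg. Mir146b (19, 46342762 to 46342870) lies in an intron of Mfsd13a. Mir146 (11, 43374397 to 43374461, minus strand) and Mir150 (7, 45121757 to 45121821) lie outside annotated genes of their strand.

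Sequencing gave 6375694 reads for pup 1 and 8373497 for pup 2. Counts on annotated strands came to 3567658 and 4683939. Levels are CPM, counts per 1000000 of those annotated-strand counts, and ± is the SD over the 2 pups throughout. In pup 1 a single count is worth 0.280 CPM and in pup 2 it is worth 0.213 CPM. The tissue label was met by its own markers: the gut epithelial miRNAs, Mir215 and Mir192 among them, summed to 340117 ± 33653 CPM, with 12 of 12 genes read. A further 30.0% ± 0.382 of reads had several possible origins in the genome and entered no gene's count. Mir146 and Mir146b share a run of 21 bases, so reads confined to it could be lost to both. For Mir342, Mir223, Mir155, Mir142 and Mir142b the longest run shared with another hairpin, on either strand and leaving out the match of Mir142 with Mir142b, was 11 to 13 bases. Mir150 is the member without a RefSeq hairpin, so its shared runs were not checked.

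The site of Mir142, a miRNA of all blood cell lineages, gave the highest reading of the members. On the strand facing Mir142b there were 3607 counts in pup 1 and 5139 in pup 2, which is 1011 CPM (95% exact binomial interval 978 to 1045) and 1097 CPM (1067 to 1128). The mean was 1054 ± 60.9 CPM. The annotated strand of Mir142b had 0 counts in both pups, which allows up to 3 counts, or 0.841 CPM in pup 1 and 0.640 CPM in pup 2. The facing strand was thus at least 1202-fold higher in pup 1 and at least 1713-fold higher in pup 2, with the floor taken per library. Repeated reads of 1 molecule cannot be recognised without molecular identifiers, so each interval or floor here measures counting error alone. A count on the annotated strand alone would put this site at 0.

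Mir142b was the sixth of 11 rows read mostly from the opposite strand. These rows had at least 10 opposite-strand counts in each library and more opposite-strand than annotated-strand reads in both. All 11 faced an annotated miRNA gene of GENCODE M21 that has no value of its own among the genes used here. The 3 with the most reads were Gm25301, facing Mir378a, with 23226 ± 480 CPM, Gm24083, facing Mir191, with 3448 ± 2.57 CPM, and Gm25927, facing Mirlet7e, with 2202 ± 121 CPM. Mir142b held 3.02% ± 0.235 of all opposite-strand reads in miRNA genes. The other 6 members had 0 opposite-strand reads in both libraries, as did 290 of the 314 genes (92.4%) with at least 10 annotated-strand counts in each.

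**Figure D1:**
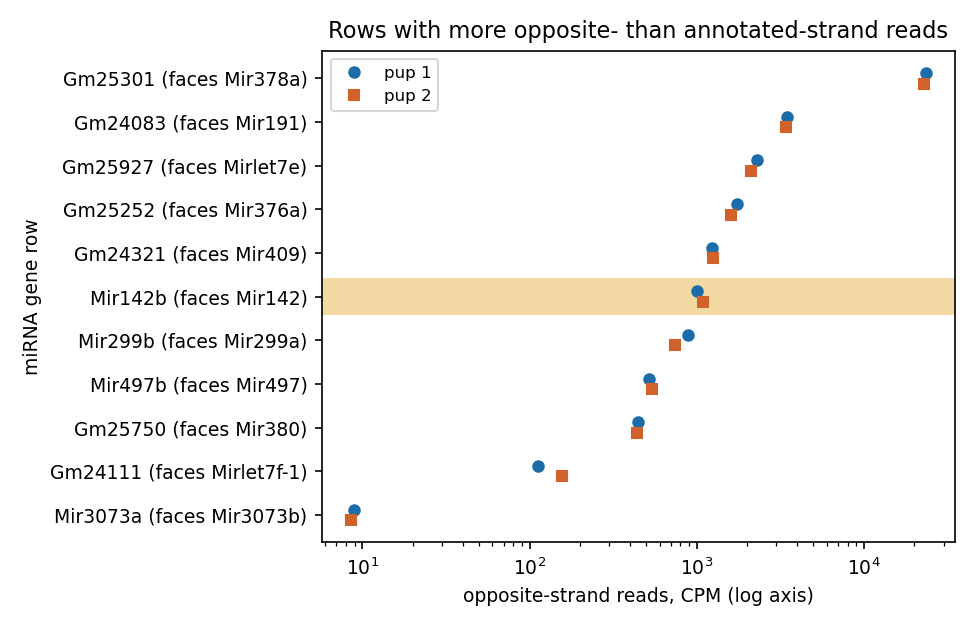
Opposite-strand reads in CPM (log axis) of the 11 miRNA gene rows read mostly from the opposite strand, with the miRNA gene each row faces in brackets; circles are pup 1 and squares pup 2. The shaded row is Mir142b, with 1011 CPM in pup 1 and 1097 CPM in pup 2.

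Mir342, a miRNA of blood-forming cells made from the Evl transcript, came next. It had 2473 counts in pup 1 and 4135 in pup 2, or 693 CPM (666 to 721) and 883 CPM (856 to 910), with a mean of 788 ± 134 CPM. Pup 2 was the higher, and the counting intervals of the pups did not overlap. The log2 ratio of the Mir142b facing reads to Mir342 was 0.54 in pup 1 and 0.31 in pup 2, a mean of 0.43 ± 0.16. The facing reads were thus above Mir342 in each pup, by 1.46-fold and 1.24-fold.

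Mir223, the miRNA of neutrophils and other myeloid cells that restrains granulocyte activation, followed. It had 1324 counts in pup 1 and 1972 in pup 2, or 371 CPM (351 to 392) and 421 CPM (403 to 440). Its mean was 396 ± 35.3 CPM, and pup 2 was again the higher with no overlap of the intervals. Mir342 was 1.87-fold above it in pup 1 and 2.10-fold in pup 2. Mir142b, Mir342 and Mir223 together held 91.9% ± 0.568 of the counts of the 7 members.

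Mir146 makes miR-146a, which is induced by NF-kB and limits its upstream signal transducers. It had 320 counts in pup 1 and 474 in pup 2, or 89.7 CPM (80.1 to 100.1) and 101 CPM (92.3 to 111), a mean of 95.4 ± 8.13. The intervals of the pups overlapped. Mir223 exceeded it by 4.14-fold in pup 1 (95% counting interval 3.66 to 4.69) and 4.16-fold in pup 2 (3.76 to 4.61). The log2 SD of 0.0056 was the smallest between neighbours in the order. The counting intervals are far wider than that, so the SD of 2 values does not measure steadiness.

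Mir146b, which has the same seed as Mir146, was hardly read. It had 2 counts in pup 1 and 1 in pup 2, or 0.561 CPM (0.0679 to 2.03) and 0.213 CPM (0.00541 to 1.19). Both are below the floor of 3 counts, the level that a row with 0 counts still allows. No reliable level could therefore be given at this depth. Over both libraries Mir146 had 794 counts and Mir146b had 3, a ratio of 265 with a 95% counting interval of 90.2 to 1286. These counts are of whole genes, and the reads of the 5p arms were not separated. Mir146b was 1 of 15 genes with exactly this mean level.

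Mir150, the miRNA of mature lymphocytes, had 233 counts in pup 1 and 290 in pup 2. This is 65.3 CPM (57.2 to 74.3) and 61.9 CPM (55.0 to 69.5), a mean of 63.6 ± 2.40, and the intervals overlapped. The myeloid Mir223 exceeded it by 5.68-fold in pup 1 and 6.80-fold in pup 2.

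Mir155, which rises when lymphocytes and macrophages are activated, was the lowest of the 6 members with at least 10 counts in each library. It had 131 counts in pup 1 and 170 in pup 2, or 36.7 CPM (30.7 to 43.6) and 36.3 CPM (31.0 to 42.2). The mean was 36.5 ± 0.300 CPM, and the intervals of the pups overlapped. Mir146 was 2.44-fold above it in pup 1 and 2.79-fold in pup 2. Mir150 was 1.78-fold above it in pup 1 and 1.71-fold in pup 2.

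The order Mir142b facing reads, Mir342, Mir223, Mir146, Mir150, Mir155 and Mir146b was the same in each pup, and in 6 of 6 neighbouring pairs the ranges over the pups did not overlap. Of the pairs whose members had at least 10 counts in each library, the closest were the Mir142b facing reads over Mir342 (log2 0.43 ± 0.16) and Mir146 over Mir150 (0.58 ± 0.18). With 2 pups these orders were not tested. Mature miRNAs are of like length, so CPM were not divided by length, but capture of small RNA depends on sequence, and a ratio between different miRNAs includes that.

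**Figure D2:**
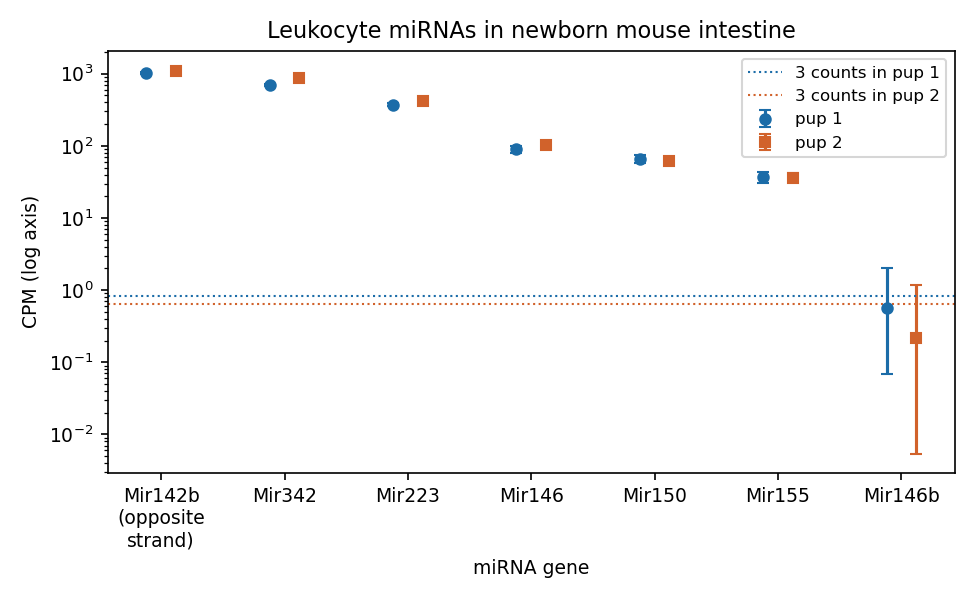
CPM (log axis) of each leukocyte miRNA gene in pup 1 (circles) and pup 2 (squares), with 95% exact binomial intervals of the counts; dotted lines mark the level of 3 counts in each library. Mir146b is the only gene whose points lie below those lines.

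Among the 315 readings (the 314 genes that reached 10 counts in both libraries, plus the Mir142b facing reads) the median was 146 CPM. The Mir142b facing reads, Mir342 and Mir223 stood above that median, at ranks 80, 94 and 114 by mean CPM. Mir146, Mir150 and Mir155 stood below it, at ranks 177, 195 and 212. No other opposite-strand reads were placed in this ranking.

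The genes just above and below each member show what levels these are. The Mir142b facing reads lay between Mir195a (1057 ± 18.5 CPM) and Mir15b (1053 ± 92.5 CPM). Mir342 lay between Mir148a (803 ± 59.1) and Mir154 (747 ± 104), and Mir223 between Mir210 (406 ± 76.2), a miRNA induced by low oxygen, and Mir433 (387 ± 42.4). Each of these neighbours was within the spread of the pups from its member. Mir146 lay between Mir665 (99.4 ± 4.46) and Mir450b (93.3 ± 2.43). Mir150 lay between Mir1306 (65.5 ± 7.01) and Mir26a-2 (57.1 ± 0.724), whose reads may be shared with a near-identical copy. Mir155 lay between the erythroid Mir144 (37.7 ± 2.93) and Mir669c (36.2 ± 4.70). With 2 libraries, likeness here means mean level and nothing more.

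**Figure D3:**
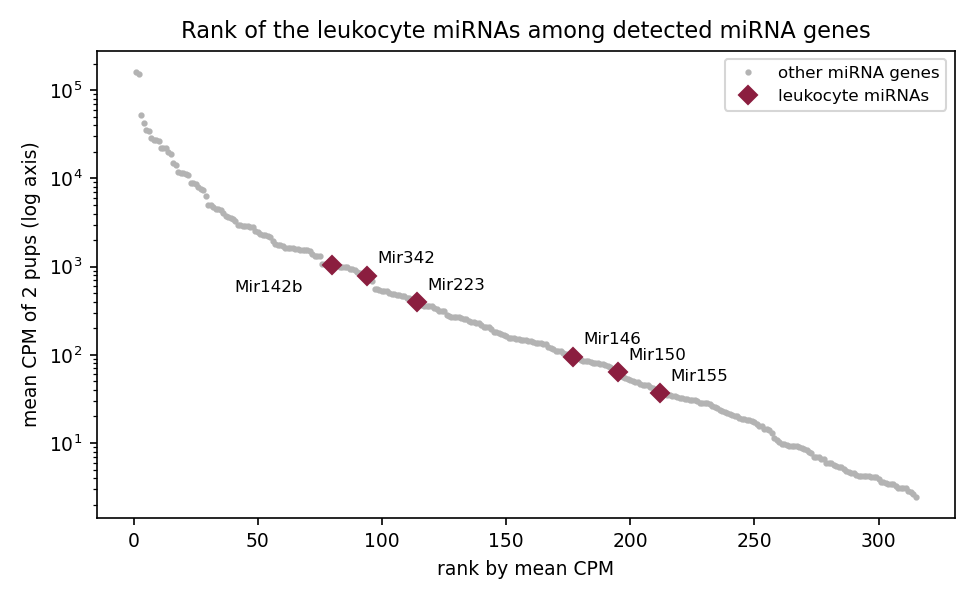
Mean CPM of the 2 pups (log axis) against rank for 315 readings, with the leukocyte miRNAs as diamonds and other miRNA genes as grey points. Mir142b (facing reads), Mir342 and Mir223 lie at ranks 80, 94 and 114, and Mir146, Mir150 and Mir155 at ranks 177, 195 and 212; Mir146b had too few counts to be drawn.

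The 7 members summed to 2268 CPM in pup 1 and 2601 in pup 2, a mean of 2434 ± 235 CPM. That equals 0.243% ± 0.0235 of the annotated-strand counts, which do not include the Mir142b facing reads. With reads of either strand counted throughout, the sum was 2352 CPM. The facing reads of Mir142b made up 43.4% ± 1.70 of the counts of the 7 members, Mir342 32.3% ± 2.39 and Mir223 16.3% ± 0.125. Mir146 held 3.92% ± 0.0454, Mir150 2.63% ± 0.353 and Mir155 1.51% ± 0.158. Without Mir142b the sum was 1380 ± 175 CPM. Lists of other cell types set the scale. Epithelial miRNAs summed to 139-fold the members in pup 1 and 140-fold in pup 2, and endothelial Mir126a stood 24.1-fold and 19.1-fold above them. The erythroid list (Mir451a, Mir144 and Mir486 had values) summed to 101 CPM in pup 1 and 148 in pup 2. The members' sum was 22.4-fold that in pup 1 and 17.6-fold in pup 2. Mir486 had 4 counts in pup 1 and 10 in pup 2, and Mir486b, also listed, had no value. Reads with several possible origins entered no gene's count, so the erythroid sum may be too low and these folds too high. How many erythroid reads were left out was not tested.

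**Figure D4:**
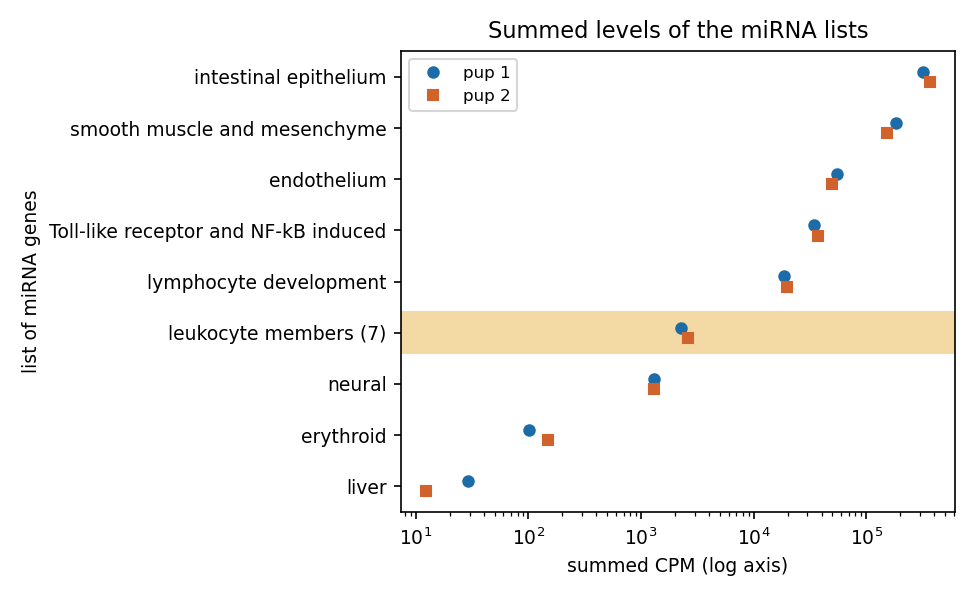
Summed CPM (log axis) of the 7 leukocyte members (shaded) and of 8 other lists of miRNA genes in pup 1 (circles) and pup 2 (squares). The members sum to 2268 CPM in pup 1 and 2601 in pup 2, between the neural list and the list of lymphocyte development. Of the 10 neural genes with values, 4 had 0 counts in both pups. Reads with several possible origins are not counted, so the sums of lists with near-identical copies may be too low.

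Other miRNAs of immune signalling spanned a wide range of levels. Of 13 listed miRNAs induced by Toll-like receptors or NF-kB, 12 had values and 9 had at least 10 counts in each library. Mir21a, which many nonimmune cells make, had 34700 ± 2018 CPM and alone took 97.1% ± 0.221 of the list. The other 8 of the 9, Mir146 and Mir155 included, lay between 24.9 and 330 CPM. Mir221 had 330 ± 10.4 CPM and Mir132 267 ± 24.8 CPM. In the list of 15 miRNAs of lymphocyte development the highest were Mir17 (7570 ± 557 CPM), Mir20a (4446 ± 458 CPM) and Mir18 (2230 ± 65.9 CPM), which belong to the cluster of proliferating cells. Mir150 and Mir155, 2 members of that list, were far below these.

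The littermates were compared with a 2-sided exact binomial test of each reading's counts, scaled by TMM, with Benjamini-Hochberg adjustment over all 315 readings and an adjusted p under 0.05 as the call. It sets the 2 libraries against counting noise and holds no replicate of either pup. Mir342 was higher in pup 2, with a log2 ratio of 0.39 (95% interval 0.32 to 0.46; adjusted p = 3.58e-26, exact binomial test). Mir223 was higher by 0.22 (0.12 to 0.33; adjusted p = 4.33e-05, exact binomial test). The facing reads of Mir142b were higher by 0.16 (0.099 to 0.22; adjusted p = 1.19e-06, exact binomial test). The 3 ratios stayed above 0 and passed with TMM, DESeq2, total-count and upper-quartile scaling. These 3 of 6 members tested passed, all higher in pup 2, beside 41.3% of all readings called in either direction and 21.6% called higher. All 6 had at least 100 counts in each library, and calls depend on depth. At that minimum 127 of 228 readings were called, 70 of them higher, and again 3 of the 6 members. Mir146b was not tested.

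The members with fewer counts did not pass. Mir146 had a log2 ratio of 0.22 (0.0092 to 0.43; adjusted p = 0.0852, exact binomial test). It passed with upper-quartile scaling (0.26, adjusted p = 0.0338), and its adjusted p lay between 0.0338 and 0.213 over the alternatives. Mir150 had -0.03 (-0.29 to 0.22; adjusted p = 0.905), which turned to 0.0074 with upper-quartile scaling. Mir155 had 0.03 (-0.31 to 0.37; adjusted p = 0.955), which turned to -0.02 with total counts.

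These differences lay inside the range of the whole table. Mir196b (-4.91) and Mir196a-2 (-3.31) had the largest ratios, both lower in pup 2, and the cause was not tested. Mir342 was the 49th of 315 by absolute log2 ratio, Mir223 the 124th and the Mir142b facing reads the 176th, and the median absolute log2 ratio over all readings was 0.18. At a fold threshold of 1.5, 0 of the 6 members passed, beside 1.59% of all readings; at an adjusted p under 0.05 without that threshold, 3 passed. The median log2 ratio of the 6 members was 0.19, against 0.0024 over all 315. Of the 130 readings called, 68 were higher in pup 2 (52.3%), and this split was 54 of 128 (42.2%) with total counts and 85 of 131 (64.9%) with upper-quartile scaling.

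Markers of other cells moved between these libraries too. All 12 epithelial miRNAs passed with pup 2 above pup 1, and their median log2 ratio was 0.19; 3 of them did not pass with total counts. The erythroid Mir451a was higher by 0.91 (adjusted p = 6.34e-15, exact binomial test), while Mir144 had -0.12 (adjusted p = 0.686). Endothelial Mir126a was lower, at -0.09 (adjusted p = 1.51e-92, exact binomial test), and liver Mir122 was lower, at -1.18 (adjusted p = 1.74e-06, exact binomial test). Of 5 smooth muscle and mesenchyme miRNAs tested, 2 were lower, Mir143 (-0.23) and Mir214 (-0.15), and 3 did not pass, among them Mir145a (0.0040, adjusted p = 0.905, exact binomial test), which was called lower with total counts (-0.04) and higher with upper-quartile scaling (0.05). The list median was -0.0017 and turned to 0.04 with upper-quartile scaling. Of 5 neural miRNAs tested, Mir138-1 was higher (0.45, adjusted p = 1.07e-06, exact binomial test) and 4 did not pass. The part of these shifts in the differences of Mir342, Mir223 and the Mir142b facing reads was not tested.

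The related lists were mixed. Of the 9 Toll-like receptor and NF-kB miRNAs tested, Mir21a was higher in pup 2 (0.16), Mir132 was lower (-0.15, adjusted p = 0.0429, exact binomial test) and 7 did not pass, with a list median of 0.11. Mir132 did not pass with upper-quartile scaling (adjusted p = 0.178, exact binomial test). Of 14 miRNAs of lymphocyte development tested, 3 were higher (Mir181b-2 with 0.61, Mir20a with 0.25 and Mir17 with 0.19), Mir181c was lower (-0.09) and 10 did not pass. Reads of Mir181b-2 may be lost to a near-identical copy, and Mir181c did not pass with upper-quartile scaling (adjusted p = 0.131, exact binomial test). The median of that list was 0.01 and turned to -0.03 with total counts.

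**Figure D5:**
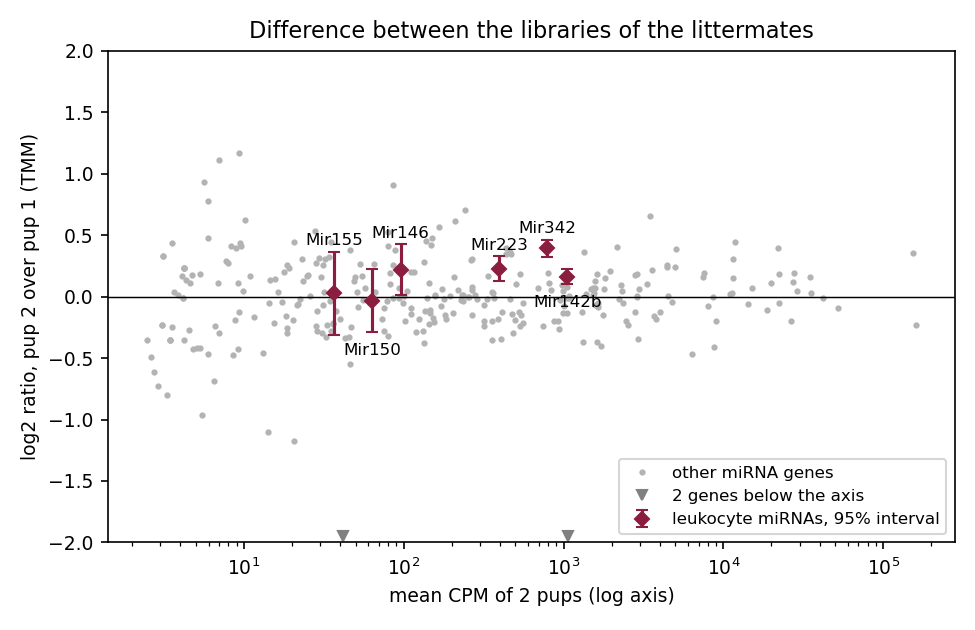
Log2 ratio of pup 2 over pup 1 after TMM scaling against mean CPM (log axis) for 315 readings; diamonds with bars are the leukocyte miRNAs and their 95% exact binomial intervals, grey points are other miRNA genes, and 2 genes below -2 are drawn as triangles at the lower edge. The intervals of Mir342, Mir223, the Mir142b facing reads and Mir146 lie above 0, and those of Mir150 and Mir155 include 0.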

How the data were processed

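The authors deposited raw read counts per miRNA gene in 3 columns per library, on mm10 with GENCODE M4 per the text that accompanies them; the aligner and the counting program are not given in the sources used here. From their sums the columns hold reads on either strand, the annotated strand and the opposite strand. The 4 rows of reads in no gene stayed out of library sizes and tests: unmapped reads were 9.75% ± 0.562 and reads outside miRNA genes 2.32% ± 0.127 (SD, n = 2). Of 1973 genes, 1894 matched GENCODE M21 (GRCm38) by identifier, and the other 79 had 0 counts. TMM and upper-quartile factors came from edgeR 4.0.16, size factors from DESeq2 1.42.0, both in R 4.3.3, and intervals from SciPy 1.17.1. Readings with at least 10 counts in each library were tested. The test was checked on simulated data that held counting noise alone, so the check does not cover variation between pups or library preparations. Members and lists were chosen with earlier results of these data known. Genes named are the members, the genes next to each in mean level, up to 3 highest genes of 2 immune lists and the 3 highest opposite-strand rows. Other genes named from the lists, and Mir196b and Mir196a-2, were picked after their values were seen. Alternatives were 3 scalings, count minimums of 1 and 100, a fold threshold of 1.5, either strand, other denominators and each pup alone.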

Additional observations from a re-analysis of the deposited data

How the results depend on the processing

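The summed level of the members, 2434 CPM, was 1362 per 1000000 of all reads, 2899 without the highest gene in the denominator, 1380 without Mir142b and, as an alternative chosen after seeing the data, 1646 without Mir342; it lay between 2268 and 2601 in each pup alone. Of 21 levels of single members under another denominator or with either strand, 13 moved by more than the SD over the pups. At a fold threshold of 1.5 the number of members called went from 3 to 0 and that of all readings from 130 to 5, because the call then asks for a larger difference. Of 42 ratios under the alternatives, 36 kept their direction and side of the threshold. Mir150 went from -0.03 to 0.0074 with upper-quartile scaling and Mir155 from 0.03 to -0.017 with total counts, neither called; the cause was not tested. No test of the ratio could be had without either pup, since 1 library is then left. No paired analysis was possible because the series has 1 group. Depth limits Mir146b, with 2 counts and 1 count.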
